A study of Homo sapiens with 6 samples.

Results

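Ribosomal proteins are the protein part of the cytosolic ribosome, and 53 genes for them were examined in Cal27, a cell line established from a squamous carcinoma of the human tongue. A probe set, the array's unit of several short probes read together, was taken as a member when the annotation of the array listed exactly 1 of these symbols and no other. This rule gave 86 of the 54675 probe sets of the table, for 40 of the 53 genes: 45 probe sets of 23 large-subunit genes and 41 of 17 small-subunit genes. The other 13 genes (RPL4, RPL5, RPL7A, RPL13, RPL15, RPL21, RPL23, RPL26, RPL28, RPLP0, RPS2, RPS13 and RPS20) had no probe set of this kind and were not analysed here. Probe sets that listed a member beside other symbols numbered 37, and 33 of those listed a small nucleolar RNA, a class of guide RNA often encoded inside ribosomal protein genes.

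Lentivirus delivered 1 of 2 hairpin RNAs: LV-shIL-1β targets the cytokine interleukin-1β, and LV-shNC has a scrambled sequence. Both groups were stable cells kept in 2 µg/mL puromycin over 2 weeks, and biotin-labelled cRNA was made from 6 µg of total RNA for Affymetrix Human Genome U133 Plus 2.0 arrays. Each group held 3 arrays. The sources used here name 1 hairpin sequence against IL-1β and leave unsaid whether separate cultures stood behind the arrays. The p-values therefore rest on the scatter of these 6 arrays alone, which may be technical. The comparison asked how transcripts of the protein-making machinery stood in cells with less IL-1β. All fold changes are LV-shIL-1β over LV-shNC on the log2 scale, with the standard error of the fit.

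A ribosome joins a small subunit, which reads the mRNA, and a large subunit, which forms the peptide bond, and each ribosomal protein is needed in about equal number. Growing cells hold ribosomal protein mRNAs among their most abundant messages. Most of these mRNAs begin with a C followed by an unbroken run of pyrimidines, the terminal oligopyrimidine (TOP) start, through which mTORC1 signalling controls chiefly their translation. Many of the genes also have processed pseudogene copies elsewhere in the genome, so a probe can match more than 1 place. On this array type, a name ending in _at marks probes meant for 1 transcript, _s_at probes shared by several transcripts and _x_at probes that can also match other sequences.

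Start sites of these genes are shown here for RPS6, RPS19, RPL22 and RPS14, as the genes of both called probe sets (RPS6, RPS19), of the uncalled one nearest the threshold (RPL22) and of 2 dim probe sets without overlap between groups (RPS14). The sequences were read from the RefSeq promoter windows of GRCh38.p14, run from 5′ to 3′, and show 30 bases before and 20 bases from the annotated start on. Capitals mark the unbroken pyrimidine run that begins at the start. They lie at chr9:19380217-19380266 (minus strand, RPS6), chr19:41860225-41860274 (plus strand, RPS19), chr1:6199576-6199625 (minus strand, RPL22) and chr5:150449720-150449769 (minus strand, RPS14). Each is placed on an annotated start. RPS19 has another annotated start, at chr19:41860374-41860423 (plus strand), which has no pyrimidine run and is not printed.
RPS6: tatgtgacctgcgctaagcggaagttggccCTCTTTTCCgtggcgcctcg
RPS19: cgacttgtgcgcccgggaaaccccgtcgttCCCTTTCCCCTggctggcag
RPL22: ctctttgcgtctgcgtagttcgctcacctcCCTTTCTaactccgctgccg
RPS14: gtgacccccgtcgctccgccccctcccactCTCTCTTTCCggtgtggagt
Of the 40 genes, 36 had a window, and 26 of these 36 genes (72.2%) had a start of this kind, a C at the first base followed by at least 4 pyrimidines, read on the gene's own strand. Among all 35116 windows the share was 4.07%, against 60.5% of the members' 43 windows. In the members' windows with such a start, the runs were 6 to 14 bases long, with a median of 8.5. The letters TATAA, searched on the gene's strand from 40 to 16 bases before the start, stood in 9.3% of the members' windows and in 3.91% of all windows. These matches describe annotated starts and say nothing of use in these cells.

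The knockdown was visible in the transcript itself. IL1B (205067_at) fell from 2594 ± 92.6 (SD, n = 3) to 1578 ± 15.8 (SD, n = 3), a log2 change of -0.72 ± 0.04 with an adjusted p of 8.5e-06 (limma). Squamous markers were present, with 5 of 8 listed genes measured and all 5 above the median of all values, while leukocyte markers were low (PTPRC, the pan-leukocyte antigen, at 2.68 and 2.64). The summed squamous markers ran from 18530 to 18910 in LV-shNC and from 16280 to 16460 in LV-shIL-1β, 3 of the 5 being called lower. The summed fibroblast markers, with 2 of 4 called lower, ran from 63.3 to 71.6 in LV-shNC and from 42.6 to 45.5 in LV-shIL-1β. These signals were low, with 2 of the 4 genes above the median of all values (18.6). The called ones, COL1A2 and LUM, fell from 23.2 to 16.1 and from 27.5 to 12.4. Whether such signals measured fibroblast RNA was not tested. RNA integrity was read from the log2 ratio of 3′ to 5′ ACTB probe sets, which averaged 0.41 ± 0.13 for LV-shNC and 0.39 ± 0.05 for LV-shIL-1β (SD, n = 3 each, exact permutation test, two-sided p = 0.9). The same ratio for GAPDH read -0.06, 0.01 and 0.00 in LV-shNC and 0.04, 0.05 and 0.02 in LV-shIL-1β, so all 3 LV-shIL-1β arrays were above all 3 LV-shNC arrays. The GAPDH means were -0.02 ± 0.03 and 0.04 ± 0.01 (SD, n = 3 each), with an exact permutation p of 0.1 (two-sided), the smallest that 3 against 3 arrays allow. The part of these differences in the results below was not tested, and in bulk RNA fewer cells of a type and less RNA per cell cannot be told apart.

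Ribosomal protein transcripts differed little between the groups when each gene was read from its brightest probe set. Of the 40 brightest probe sets, 0 passed the adjusted threshold of 0.05 in the limma test (2 had an unadjusted p under 0.05), beside 2.74% of all 54613 probe sets tested. Their log2 fold changes ran from -0.08 to 0.08 with a median of -0.02, where the median over all probe sets was -0.01. All 40 lay within 0.1 of zero, and the 95% confidence intervals of all 40 stayed within a 1.25-fold change and of 35 within a 1.1-fold change. The member probe sets together took 4.43%, 4.50% and 4.47% of the summed signal on the LV-shNC arrays and 4.43%, 4.42% and 4.42% on the LV-shIL-1β arrays, the groups meeting at 4.43%.

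The large-subunit genes were flat over their brightest probe sets, with a median of -0.0148, or 0.0004 after median centring. RPL35, a protein near the exit of the peptide tunnel, gave the lowest fold change of all 40 and is named, like RPL12, after its values were seen. RPL35 (200002_at) read 6831, 7387 and 7031 in LV-shNC and 6724, 6725 and 6617 in LV-shIL-1β, a log2 change of -0.08 ± 0.03 (adjusted p = 0.268). Every LV-shIL-1β array was below every LV-shNC array, yet the gap was small beside the spread within LV-shNC. RPL12, a protein at the base of the stalk that recruits translation factors, had the highest. RPL12 (200809_x_at) read 7760, 7483 and 7619 in LV-shNC and 7827, 8254 and 7997 in LV-shIL-1β, a log2 change of 0.08 ± 0.03 (adjusted p = 0.271). Its groups did not overlap either, and the neighbouring values of both groups lay less than 1 SD apart. Neither gene passed the test.

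The small-subunit genes were equally flat and held the brightest probe sets of the family. RPS18 (201049_s_at), a protein of the head of the subunit, read 9190, 9376 and 9243 in LV-shNC and 9059, 9252 and 9114 in LV-shIL-1β, a log2 change of -0.02 ± 0.03. RPS10 (200095_x_at), a protein near the mRNA entry side, read 9082, 9216 and 8997 against 8981, 9209 and 9178, a log2 change of 0.00 ± 0.03. The groups overlapped in both genes. The other 3 of the 5 brightest probe sets, RPS14 (208645_s_at), RPS10 (211542_x_at) and RPS23 (200926_at), changed by -0.01, 0.01 and 0.01. RPS25, which viral internal ribosome entry needs, was the least bright of the 40 and the most variable. RPS25 (200091_s_at) read 1245, 1596 and 1461 in LV-shNC and 1472, 1399 and 1252 in LV-shIL-1β, a log2 change of -0.06 ± 0.08, with the lowest and the highest reading of all 6 arrays both in LV-shNC.

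Brightness split the 86 probe sets into 2 classes. The widest gap in mean signal lay between 306 and 657, a step of 1.11 on the log2 scale where the next widest was 0.82, with 62 bright probe sets above it and 24 dim ones below. RPS24 (1555878_at) at 306 and RPS21 (214097_at) at 657 stood at the edges. This boundary was drawn after the values were seen. All 40 genes had a bright probe set, and 18 had a dim one as well. Of the dim probe sets, 19 had names ending in _at, 1 in _s_at and 4 in _x_at, whereas the bright ones comprised 13, 25 and 24. Signals of different probe sets cannot be compared as amounts of RNA, and brightness served only to sort them.

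**Figure D1:**
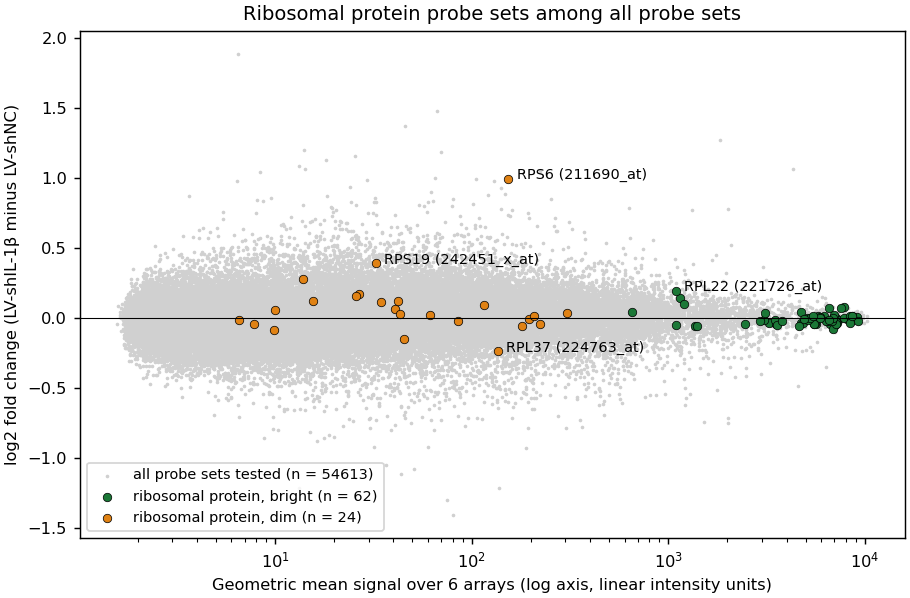
Log2 fold change (LV-shIL-1β minus LV-shNC, vertical axis) against the geometric mean signal over 6 arrays in linear intensity units (horizontal log axis) for all 54613 probe sets tested (grey), the 62 bright (green) and the 24 dim (orange) ribosomal protein probe sets. Bright members lie in a narrow band around zero between -0.08 and 0.19, and the dim members spread from -0.24 to 0.99.

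The bright class held no called member. Of its 62 probe sets 0 were called by limma (5 had an unadjusted p under 0.05), beside 177 of 2269 other probe sets at least as bright as its lowest member, a share of 7.80%. The median absolute log2 change was 0.02 in the class and 0.06 in those other probe sets, and the median SD within groups was 0.0305 and 0.0516 on the log2 scale. Most of the 2269 were less bright than the class, so a closer set, chosen after the values were seen, was also read: 56 probe sets of genes that are not ribosomal, all at least as bright as the median of the class. There 2 of 56 were called (3.57%), FTL, the ferritin light chain, higher and the basal keratin KRT14 lower, and the median absolute change was 0.03. The highest reading of any probe set tested was 10400, and the brightest members reached 9376. How far such signals sit from the upper limit of the scanner was not tested.

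The dim class held both calls. Of its 24 probe sets 2 were called (8.33%), RPS6 (211690_at) and RPS19 (242451_x_at), both higher, beside 3.00% of the 34746 other probe sets in the same signal range. Over all 86 members this is 2.33%, close to the 2.74% of the whole table, in which 1.37% of probe sets were called higher and 1.38% lower. An unadjusted p under 0.05 was found for 8 of 86 members and for 15.4% of all probe sets. The groups did not overlap for 13 of 86 members (15.1%), below the 20.2% of all probe sets. A fold over 1.5 with an unadjusted p under 0.05 was met by RPS6 alone among the members, against 0.472% of all probe sets. The dim probe sets had a median log2 change of 0.03. The 14 from small-subunit genes had a median of 0.12, with 11 above zero, and the 10 from large-subunit genes a median of -0.01, with 4 above zero. After median centring these medians were 0.13 and 0.0017, so the sign for the large-subunit probe sets depended on the scaling.

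**Figure D2:**
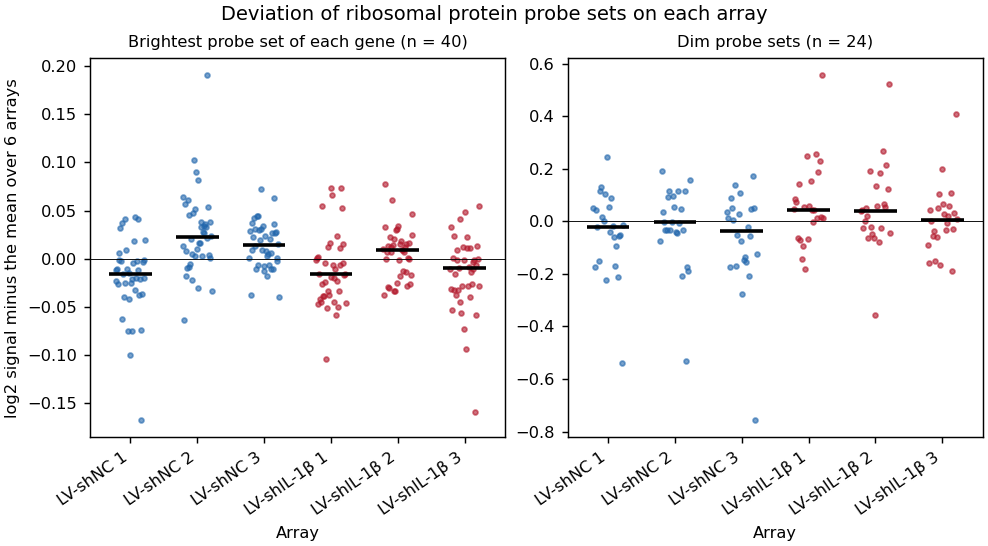
Log2 signal of each probe set minus its own mean over 6 arrays (vertical axis), by array, for the brightest probe set of each gene (left, n = 40) and for the dim probe sets (right, n = 24, on a wider axis); black bars are medians. Medians of the brightest sets overlap between groups (-0.02 to 0.02 in LV-shNC, -0.02 to 0.01 in LV-shIL-1β), and those of the dim sets do not (-0.0363 to -0.0048 and 0.0063 to 0.0439). Not drawn apart, the 14 small-subunit dim sets do not overlap (-0.0991 to -0.0201 in LV-shNC, 0.0228 to 0.0622 in LV-shIL-1β). The 10 large-subunit ones do (-0.0036 to 0.0309 in LV-shNC, -0.0459 to 0.0091 in LV-shIL-1β).

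RPS6 gave the largest change of the family, in its dimmest probe set. RPS6 is the small-subunit protein phosphorylated by S6 kinase downstream of mTORC1, and its gene carries a TOP start of 9 pyrimidines, printed above. Its dim probe set (211690_at) read 105.8, 134.9 and 91.0 in LV-shNC and 226.0, 221.1 and 203.9 in LV-shIL-1β. All 3 LV-shIL-1β arrays were well above all 3 LV-shNC arrays, and the control arrays scattered more. The mean rose from 111 ± 22.3 to 217 ± 11.6 (SD, n = 3 each), a log2 change of 0.99 ± 0.12 with a 95% confidence interval of 0.73 to 1.25 and an adjusted p of 0.00134. Leaving out any 1 array kept the limma call, with an adjusted p of at most 0.0202. The methods' plain test lost it once adjusted (adjusted p = 0.17), a form in which only 5 of all probe sets passed. The paper's thresholds for these arrays were a fold over 1.5 and an unadjusted p under 0.05. In the plain test 240 probe sets met those thresholds, and this RPS6 probe set was the 1 member among them.

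The other RPS6 probe sets did not move with it. The brightest (200081_s_at) read 6357, 6533 and 6354 in LV-shNC and 6290, 6288 and 6364 in LV-shIL-1β, a log2 change of -0.02 ± 0.03. The next (201254_x_at) read 5977, 5906 and 5826 against 5990, 5836 and 5882, a log2 change of 0.00 ± 0.03. The last (209134_s_at) read 5213, 5682 and 5408 against 5837, 5369 and 5279, a log2 change of 0.02 ± 0.04. Both groups overlapped in each of these 3 probe sets. The position of the probes of 211690_at within the gene is not given in the sources used here, so it is not known which RNA this probe set read.

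RPS19, a small-subunit protein needed for maturation of the subunit and mutated in Diamond-Blackfan anaemia, was the other call. Its dim probe set (242451_x_at) read 28.9, 28.1 and 28.1 in LV-shNC and 38.8, 39.1 and 33.8 in LV-shIL-1β. The controls were nearly identical and all LV-shIL-1β arrays were above them, the third array the least. The mean rose from 28.4 ± 0.415 to 37.2 ± 2.97 (SD, n = 3 each), a log2 change of 0.39 ± 0.09 with an adjusted p of 0.0435. This call stood close to the threshold: it was lost whichever single array was left out, with adjusted p from 0.0515 to 0.187. Its name ends in _x_at, and without probe sets of that ending RPS6 was the only called member. The bright RPS19 probe sets changed by -0.04 ± 0.03 (213414_s_at) and 0.01 ± 0.03 (202649_x_at), with groups that overlapped.

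**Figure D3:**
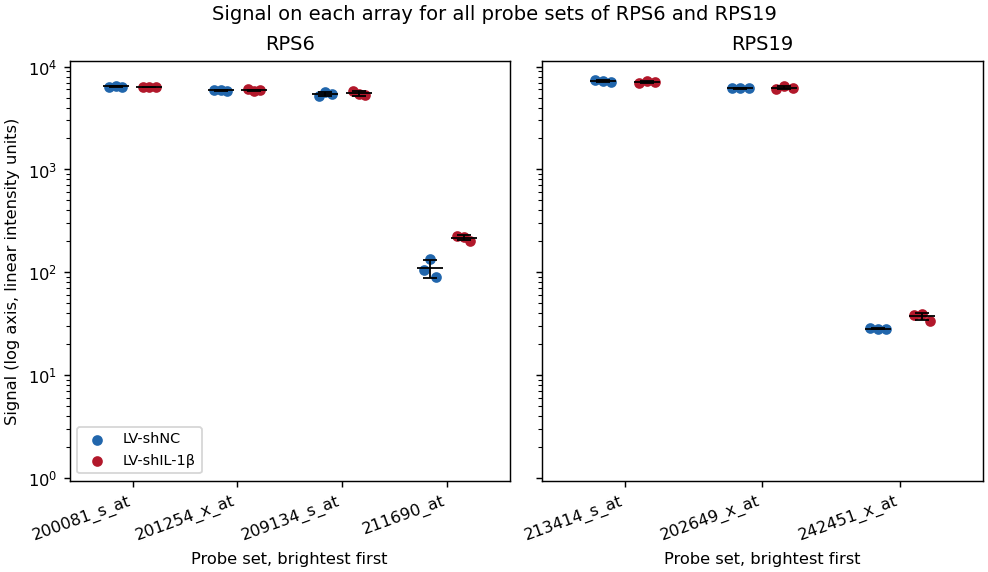
Signal on each array (log axis, linear intensity units) for the 4 probe sets of RPS6 (left) and the 3 of RPS19 (right), brightest first; bars are the mean and SD of 3 arrays, blue for LV-shNC and red for LV-shIL-1β. The groups separate only in 211690_at (111 against 217) and 242451_x_at (28.4 against 37.2).

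RPL22 and RPL37 stood just short of the threshold, in opposite directions. RPL22 is a large-subunit protein whose loss raises its paralogue RPL22L1, and it had the most probe sets of any member, 5. Its least bright probe set (221726_at) read 1046, 1003 and 1016 in LV-shNC and 1098, 1193 and 1214 in LV-shIL-1β, a log2 change of 0.19 ± 0.05 (adjusted p = 0.0598). The groups did not overlap there. The next (214042_s_at) read 1036, 1150 and 1108 against 1236, 1290 and 1108, a log2 change of 0.14 ± 0.06 (adjusted p = 0.294), with overlap at the lowest LV-shIL-1β array. The 3 brighter RPL22 probe sets, all with names ending in _x_at, changed by -0.04, -0.04 and -0.05. RPL22L1 (225541_at) was at 1027 ± 23.1 and 1054 ± 62.7 (SD, n = 3 each), a log2 change of 0.04 ± 0.05.

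RPL37, a small zinc-finger protein of the large subunit, had 4 probe sets, 3 of them dim. One of these (224763_at) read 149.3, 145.5 and 150.0 in LV-shNC and 123.4, 130.6 and 122.9 in LV-shIL-1β, a log2 change of -0.24 ± 0.06 (adjusted p = 0.0627). Every LV-shIL-1β array was below every control, and the arrays of a group were close together. The other dim RPL37 probe sets changed by -0.06 ± 0.06 (224767_at) and 0.03 ± 0.10 (224766_at), and the bright one (200092_s_at) by -0.03 ± 0.04, all with overlap. Both near-threshold members passed where fewer probe sets were tested: with low values filtered out the adjusted p was 0.0394 for RPL22 and 0.0373 for RPL37. Over all probe sets, RPL22 also passed in limma after median centring (adjusted p = 0.042) and without the first LV-shIL-1β array (adjusted p = 0.0189). RPL37 also passed after quantile normalization (adjusted p = 0.0267). Of 13 alternatives each, RPL22 passed in 3 and RPL37 in 2.

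Other dim small-subunit probe sets had higher means in LV-shIL-1β without a call. RPS14, whose haploinsufficiency marks the 5q- syndrome, read 27.78, 26.01 and 22.06 in LV-shNC and 27.86, 29.33 and 28.01 in LV-shIL-1β in 241241_at, a log2 change of 0.17 ± 0.10 (adjusted p = 0.468). Its 214245_at read 25.01, 24.96 and 23.22 against 28.60, 26.80 and 26.22, a log2 change of 0.16 ± 0.09 (adjusted p = 0.445). Neither overlapped between groups, though in 241241_at the nearest arrays were almost equal, and the gene's dimmest probe set (217298_at), at 8.01 and 7.74, changed by -0.05 ± 0.11. RPS23 (227722_at), a protein of the decoding centre, read 39.4, 41.0 and 40.5 against 42.4, 44.0 and 45.2, a log2 change of 0.12 ± 0.08 (adjusted p = 0.499). RPS27 (236621_at) read 13.4, 9.65 and 15.7 against 16.3, 16.2 and 13.7, a log2 change of 0.28 ± 0.16, and its groups overlapped. RPS12 (217723_x_at) read 53.4, 46.8 and 42.8 against 43.0, 35.2 and 51.7, a log2 change of -0.15 ± 0.13 with wide overlap, the lowest of the 3 below zero in this group of 14.

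The lowest signals of the family carried no call. Of the dim class, 6 probe sets were below the median of all values. Those of RPS9 (1557981_at), RPS14 (217298_at), RPLP1 (244191_at) and RPL7 (239493_at) had mean signals of 6.54, 7.88, 9.92 and 9.95. Their log2 changes were -0.02, -0.05, -0.09 and 0.06, with standard errors of 0.10 to 0.11. The other 2 were RPS27 (236621_at), given above, with a mean signal of 14.2, and RPS15 (1563014_at) at 15.6, which changed by 0.12 ± 0.10 with overlap. No detection calls were used, so whether such probe sets measured any ribosomal protein RNA was not tested.

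Some intermediate probe sets varied more between arrays than between groups. RPL38, a large-subunit protein known for selective translation of Hox mRNAs, is named here after its values were seen. Its second probe set (202028_s_at) read 1253, 1330 and 1616 in LV-shNC and 1483, 1329 and 1205 in LV-shIL-1β, a log2 change of -0.06 ± 0.09. The lowest and highest arrays belonged to different groups, and the third RPL38 probe set (221943_x_at) had the same lowest and highest arrays, at 952 and 1287. The brightest (202029_x_at) stayed between 4925 and 5161. On the same arrays the ACTB 3′ to 5′ ratio was highest, at 0.551, on array 3 of LV-shNC and low, at 0.297 and 0.334, on array 1 of LV-shNC and array 3 of LV-shIL-1β, the 3 arrays at the ends of the RPL38 range. The same ratio for GAPDH was -0.001 on array 3 of LV-shNC, between -0.056 on array 1 of LV-shNC and 0.024 on array 3 of LV-shIL-1β. The part of RNA integrity in the spread of RPL38 was not tested.

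Dim and bright probe sets of the same gene were then set against each other. In 26 genes with 2 or more probe sets, the dimmest had the larger absolute change in 19 (73.1%), beside 51.1% of all 10523 genes with 2 or more. The members' dimmest and brightest probe sets lay further apart in signal, with a median gap of 6.36 on the log2 scale against 2.07. Their fold changes lay closer together, with a median absolute difference of 0.06 against 0.12. The dimmest probe sets also had a median SD within groups of 0.0917 on the log2 scale, against 0.0267 for the brightest of the same 26 genes.

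**Figure D4:**
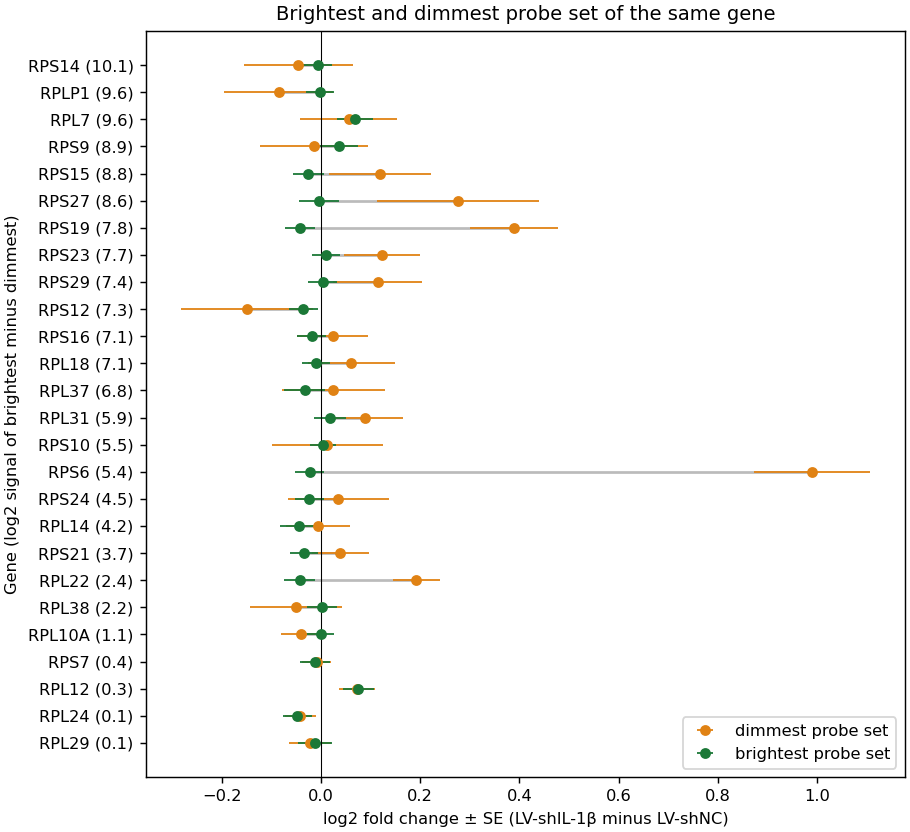
Log2 fold change ± SE (LV-shIL-1β minus LV-shNC, horizontal axis) of the brightest (green) and dimmest (orange) probe set of 26 genes, ordered by the gap in log2 signal given in brackets. The brightest sets lie between -0.05 and 0.08, and the pairs of RPS6, RPS19, RPS27 and RPL22 are the widest apart.

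A direct test of unequal change within a gene called none of the members. The difference of each probe set from the brightest of its gene was formed on each array, and 16 of 21316 such differences passed the adjusted threshold in limma (0.0751%). Of the 46 member differences 0 passed, and 3 had an unadjusted p under 0.05: those of RPS6 (211690_at), RPS19 (242451_x_at) and RPL22 (221726_at). The RPS6 difference was 1.01 ± 0.14 on the log2 scale with an adjusted p of 0.0666, and it passed when low values were filtered out (adjusted p = 0.0321). The RPS19 difference was 0.43 ± 0.10 (adjusted p = 0.194). A gap between probe sets of RPS6 was thus large against its error but short of the threshold over all genes.

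Genes with related functions were read from the same fit, by lists of every probe set with 1 symbol. The other cytosolic ribosomal protein genes, 13 of 27 measured with 26 probe sets, had 0 calls (0 with an unadjusted p under 0.05) and a median log2 change of -0.01. Ribosomal protein paralogues, 8 genes with 10 probe sets, had 0 calls as well (1 with an unadjusted p under 0.05). Of 51 probe sets of translation factors and other TOP mRNAs, 1 was called in limma (1.96%, beside 2.74% of all probe sets). An unadjusted p under 0.05 was found for 6 (11.8%, beside 15.4% of all probe sets). The called one was NAP1L1 (208753_s_at), a histone chaperone, which rose from 354 ± 4.67 to 456 ± 41.3. This call was lost without the second LV-shIL-1β array or any 1 LV-shNC array. Brighter NAP1L1 probe sets changed by 0.03 (208752_x_at), 0.05 (212967_x_at), 0.05 (213864_s_at) and 0.01 (204528_s_at). Dimmer ones changed by 0.13 (208754_s_at) and 0.20 (1556121_at), and none of these was called. The elongation factor EEF1A1 changed by 0.01 ± 0.03 (204892_x_at).

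Ribosome biogenesis factors, which make and process ribosomal RNA and assemble the subunits, had the highest median of the lists. Of 130 probe sets of 63 genes, 6 were called higher and 1 lower (5.38%, beside 2.74% of all), and the median log2 change was 0.11. An unadjusted p under 0.05 was found for 43 (33.1%), beside 15.4% of all probe sets. Above zero were 110 of the 130, beside 47.0% of all probe sets. The brightest probe set was above zero in 57 of 63 genes, a count without a like share over all genes here. The called ones were RIOK1 (224450_s_at), a kinase of late small-subunit maturation, at 186 ± 13.6 and 234 ± 7.20, LSG1, a GTPase of the large subunit, in 2 probe sets (432 ± 3.70 and 512 ± 14.1 in 221536_s_at), RRS1 (681 ± 15.1 and 804 ± 44.8), NMD3, the export adaptor of the large subunit (970 ± 18.7 and 1113 ± 18.3), and HEATR1 (126 ± 1.03 and 152 ± 4.15). RRP1B, a nucleolar protein, fell from 434 ± 17.2 to 360 ± 18.6 (log2 change -0.27 ± 0.06, adjusted p = 0.029). HEATR1 had brighter probe sets that changed by 0.05 and 0.05. The median stayed between 0.09 and 0.13 under all alternatives, whereas the calls did not: 0 passed without the second or the third LV-shIL-1β array or the second LV-shNC array, 2 without the first LV-shNC array and 1 without the third.

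Mitochondrial ribosomal protein genes, which serve the separate ribosome of mitochondria, were called at a share near that of all probe sets. Of 140 probe sets of 75 genes 2 were called higher and 2 lower (2.86%, beside 2.74% of all), with a median of 0.00. MRPL39 (218558_s_at) fell from 745 ± 21.6 to 567 ± 22.1 (log2 change -0.39 ± 0.05, adjusted p = 0.00166), and MRPS6 (224919_at) from 669 ± 19.4 to 549 ± 36.7. MRPL4 (223742_at) rose from 114 ± 0.396 to 152 ± 17.7 and MRPL30 (224173_s_at) from 48.0 ± 2.34 to 67.2 ± 9.92. Neither rise was called without the second or the third LV-shIL-1β array or without any 1 LV-shNC array, and only 1 probe set was called lower without the third LV-shIL-1β array or any 1 LV-shNC array.

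The mTORC1 and S6 kinase list, whose products act on RPS6 and on TOP mRNAs, had a median log2 change of 0.01. Of its 53 probe sets 3 were called, all higher (5.66%, beside 2.74% of all probe sets called and 1.37% called higher). They were RPS6KA3, an RSK kinase that can phosphorylate RPS6 (178 ± 3.46 and 212 ± 5.64), EIF4EBP2, a repressor of cap-dependent translation (191 ± 9.03 and 230 ± 13.5), and the RNA-binding protein LARP4 (546 ± 25.2 and 653 ± 22.6). The list had 0 calls without the second or the third LV-shIL-1β array or the second or the third LV-shNC array, and 1 without the first LV-shNC array. An unadjusted p under 0.05 (limma) was found for 8 of its probe sets (15.1%), a share near the 15.4% of all probe sets. MTOR itself (202288_at) changed by 0.00 ± 0.09, and RPS6KB1, the S6 kinase gene, by 0.07 ± 0.05 in its brightest probe set (226660_at). LARP1, which binds the TOP start, changed by 0.10 ± 0.05 in its brightest (212137_at, adjusted p = 0.301).

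**Figure D5:**
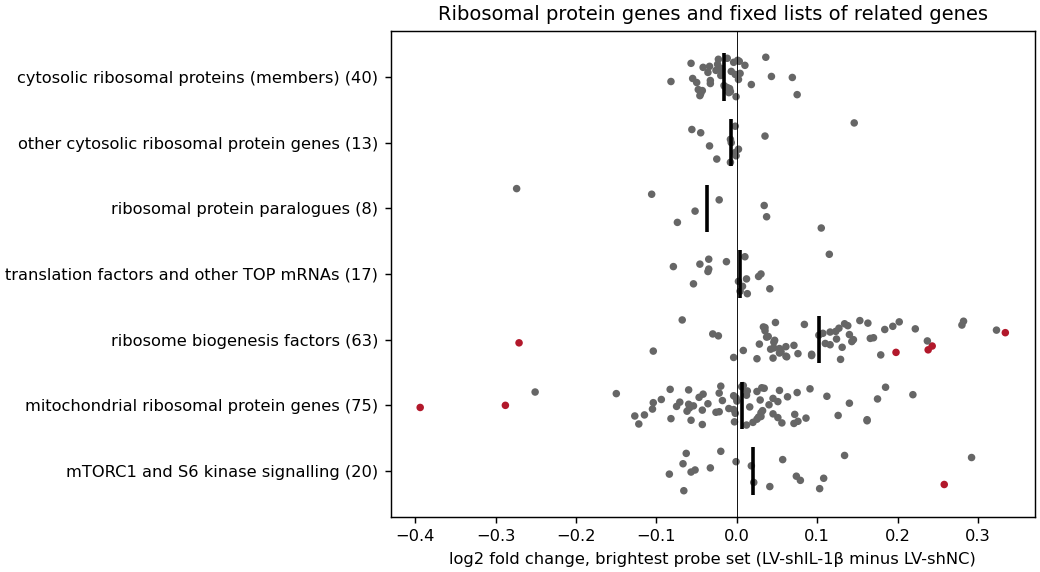
Log2 fold change (LV-shIL-1β minus LV-shNC, horizontal axis) of the brightest probe set of each gene, by list, with the number of genes in brackets; black bars are medians and red points passed the adjusted threshold. Cytosolic ribosomal protein genes cluster at zero (median -0.02), and ribosome biogenesis factors are centred at 0.10.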

How the data were processed

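The deposited table holds 1 linear intensity for each probe set on each array. The submitters' processing notes name MAS5 without a version, and no source used here gives its scaling or any step across arrays. Array number, 3 per group, limits the precision. Signals were put on the log2 scale with no further normalization, filter or pseudocount, and 62 control probe sets were left out. Groups, taken from the labels, were tested in R 4.3.3 by lmFit and eBayes with trend of limma 3.58.1 (two-sided) over 54613 probe sets, with Benjamini-Hochberg adjustment and a threshold of 0.05. A second fit used, on each array, the difference of a probe set from the brightest of its gene. Alternatives were a filter on low values, a pseudocount of 16, median centring, quantile normalization, a replicate block, no variance trend, the methods' t-test and leaving out each array. Calls of the t-test were adjusted in the same way. The code was tested on simulated data.

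Named members were all called probe sets and all probe sets of their genes, the 10 largest changes, and the 5 brightest and 5 dimmest. Lists gave up to 4 called probe sets each. Others were named after their values were seen. The members and lists were chosen with earlier results of these data known. Symbols came from the platform annotation (41097 probe sets with 1 symbol, 1801 with several, 11777 with none). Of those with 1, 41043 matched a RefSeq table of GRCh38.p14, with 0 symbols changed.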

Additional observations from a re-analysis of the deposited data

Results flagged for a closer look

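The array also carries control probe sets for ribosomal RNA, which no comparison above used. That for the 5′ part of 28S rRNA read 1152 ± 29.2 for LV-shNC and 1333 ± 33.3 for LV-shIL-1β (SD, n = 3 each), higher by 0.21 on the log2 scale with no overlap. That for the middle part stood at 374 ± 35.5 and 475 ± 9.78, higher by 0.35, again with no overlap. In an exact permutation test (two-sided) both gave p = 0.1, the smallest that 3 against 3 arrays allow. The 3′ part, at 9.62 ± 0.998 and 10.4 ± 0.358, overlapped (exact permutation p = 0.3), as did the 3 probe sets for 18S rRNA, whose means were lower in LV-shIL-1β (exact permutation p = 0.4 to 0.7).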

How the results depend on the processing

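The flat result of the brightest probe sets moved little: their median log2 change stayed between -0.03 and 0.00 under every alternative run. Calls over the whole table numbered 1499, and 532 with the replicate block, 426 without the variance trend, 5 with the methods' t-test and 578 to 1316 with 1 array left out. Deviations from the group mean correlated at -0.22, -0.08 and -0.13 between same-numbered arrays, so these shared no positive deviation. With 3 arrays per group this cannot tell whether they were handled together. Members called numbered 2, and 4 after the filter, 3 after median centring or quantile normalization and 0 with the t-test. They numbered 1 with the pseudocount, the block, no trend or no _x_at probe sets, and 1 to 2 with 1 array left out. List calls numbered 15, and 1 with the block, 0 without the trend, 0 with the t-test and 1 to 14 with 1 array left out. Within-gene calls numbered 16, and 25 after the filter, 261 with the pseudocount, 0 with the block, 0 with the t-test and 0 to 2 with 1 array left out; member differences called numbered 1 after the filter and 2 with the pseudocount. The median of all members was 0.0066 after centring and -0.0142 to 0.0036 with 1 array left out, and that of the dimmest 0.0239 to 0.0588. Signs turned only in uncalled probe sets near zero. After centring, these were RPS14 208645_s_at (0.008), RPS6 201254_x_at (0.015) and RPS9 1557981_at (0.001). After quantile normalization they were RPS10 200095_x_at (-0.003) and 211542_x_at (-0.002) and RPS9 1557981_at (0.014). With 1 array left out, the ranges were -0.004 to 0.015 and -0.004 to 0.031 for those RPS10 sets, -0.025 to 0.010 for RPS14 208645_s_at, -0.125 to 0.000 for RPS14 217298_at, -0.008 to 0.034 for RPS19 202649_x_at, -0.006 to 0.029 for RPS23 200926_at, -0.011 to 0.009 for RPS6 201254_x_at, -0.029 to 0.048 for RPS6 209134_s_at and -0.080 to 0.061 for RPS9 1557981_at. Of 307 alternatives of 24 named probe sets, 268 kept direction and side of the threshold. The cause of these changes was not tested.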
